A study of Mus musculus with 4 samples.

Results

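Crym, the gene of μ-crystallin, was examined together with 8 other genes of thyroid hormone handling, Slco1c1, Dio2, Thra, Thrb, Klf9, Thrsp, Hr and Ttr. The 9 genes were taken by symbol from the 31053 genes listed in each of the 4 libraries, and all 9 had at least 1 UMI (unique molecular identifier, 1 captured RNA molecule) in the cells kept. They were chosen by the level of Crym, which led the subpallial cluster of quiescent cells at P12, so the values of the 9 genes in that contrast, and those of Crym in every P12 comparison with quiescent cells, are given as a description, without a test. The tissue was the dorsal ventricular-subventricular zone (V-SVZ), a germinal layer beside the lateral ventricle, taken from wild-type OF1 mice that received no treatment. It was microdissected, dissociated with papain and profiled with 10x Genomics 3′ chemistry at postnatal day 2 (P2, 1 library), P12 (replicates 1 and 2, from independent experiments) and P22 (1 library). The labels name the animals as males and the methods state that 2 mice were pooled by time point and that a female was included at P2, so that the number of animals behind each P12 library is not settled. Cells were grouped without the 9 genes and named from markers as quiescent (qNSC-like) or activated (aNSC-like) neural stem cells, transit-amplifying progenitors (TAP-like), astrocytes, ependymal cells and others. The qNSC-like clusters were divided into a pallial and a subpallial group, named for the part of the embryonic forebrain whose genes they carry (Emx1, Neurod1, Neurod6, Neurog2 and Tbr1 against Gsx2, Dlx6, Dlx5, Sp9, Dlx2 and Gad1). Whole clusters were named, and many of their cells carried neither set. At P12, 46.2% of the cells of the subpallial cluster carried genes of the subpallial set alone. In the pallial clusters 52.4% and 35.0% carried genes of the pallial set alone.

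Thyroid hormone reaches the brain mostly as thyroxine, which is carried across endothelial and glial membranes by transporters such as the product of Slco1c1. In astroglia the deiodinase encoded by Dio2 converts thyroxine to the active hormone triiodothyronine, while Dio3 encodes the enzyme that inactivates both. The active hormone binds the nuclear receptors encoded by Thra and Thrb, which switch genes such as Klf9, Thrsp and Hr, and μ-crystallin is a cytosolic protein that binds triiodothyronine. Ttr encodes transthyretin, the thyroxine carrier that the choroid plexus secretes into the cerebrospinal fluid.

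The 4 libraries held 65323423 to 106402687 UMIs over 4608 to 8617 barcodes, of which 4027 to 7004 cells were kept, with medians of 11853.5 to 14303 UMIs per cell. Libraries shared 5 to 12 barcodes pairwise. The file headers name another Cell Ranger version at P12 (3.1.0) than at P2 and P22 (5.0.1), so that this version goes with age and cannot be told apart from it. The qNSC-like class carried all 8 of its markers in every library, and the astrocyte-like class all 10 of its own, summed to 1842 to 3690 CPM (a gene's UMIs scaled to the same total in each class and library, the unit of all levels given here) against 835 to 1088 CPM in qNSC-like cells. Against the other cells of P12, the subpallial cluster had 5 of the 8 qNSC and 8 of the 10 astrocyte markers higher, and the main pallial cluster 8 and 6. The pallial class joined this main cluster, led by Thbs4, and another led by Col23a1. They held 29 and 198 cells at P2 and 280 and 27 at P22. In P12 replicate 1 they held 2267 and 755 cells, and in replicate 2 they held 1524 and 473. The study calls pallial quiescent cells virtually absent from its P2 data. Class names at P2 and P22 were transferred from P12, with median transfer scores of 0.972 and 0.987 for subpallial and 0.649 and 0.931 for pallial qNSC-like cells, so the pallial class of P2 is the least certain. Another glial cluster led by Igf1, Cck and Gdf5 and a cluster of shallow cells led by AY036118 could not be named and are called unnamed A and unnamed B.

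Crym transcripts were concentrated in the class named subpallial qNSC-like. Most lay in cells with less Gsx2 than the cells of the class without Crym, as given below. Its level there was 102 CPM at P2, 64.6 and 67.8 in P12 replicates 1 and 2, and 173 at P22, from 460 to 698 UMIs in each library. In pallial qNSC-like cells it was 8.04 at P2, 0.837 and 0.523 at P12 and 0.842 at P22. Every subpallial value lay above every pallial one. Subpallial qNSC-like cells made up 6.43, 8.44, 14.7 and 7.26% of the cells kept at P2, in P12 replicates 1 and 2 and at P22, and held 85.7, 78.4, 89.6 and 48.7% of all Crym UMIs.

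The level in the astrocyte-like cells differed widely between libraries. In them Crym stood at 1.06 CPM at P2, on a single UMI, at 23.4 and 6.95 in the P12 replicates and at 214 at P22. The P22 value (95% Poisson interval 189 to 241, counting error only) lay above that of the subpallial qNSC-like cells of the same library (159 to 188), whereas at P2 and in both P12 replicates the subpallial cells were higher. These intervals take no account of the spread between cells. At P22 a single astrocyte-like cell held 71 of the 274 Crym UMIs of its class, and 5 cells held 66.4%. The order of the 2 classes at P22 is therefore not settled. At P12 the astrocyte-like cells and unnamed B, at 36.4 and 7.18, came second and did not separate from each other. All other classes stayed at or below 1.5 CPM at P12, among them ependymal-like cells at 1.15 and 1.5, TAP-like cells at 0.206 and 0.220 and aNSC-like cells at 0 (a count of 0 allows up to 0.218) and 1.45, and their order did not hold in both replicates. Endothelial-like and microglia-like cells of P12, 18 to 29 and 8 to 10 in number, had no Crym UMI. At P22 the aNSC-like cells reached 4.29 and the GABAergic neuroblast-like cells 15.7, the latter class holding 18.7% of that library's Crym UMIs.

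**Figure D1:**
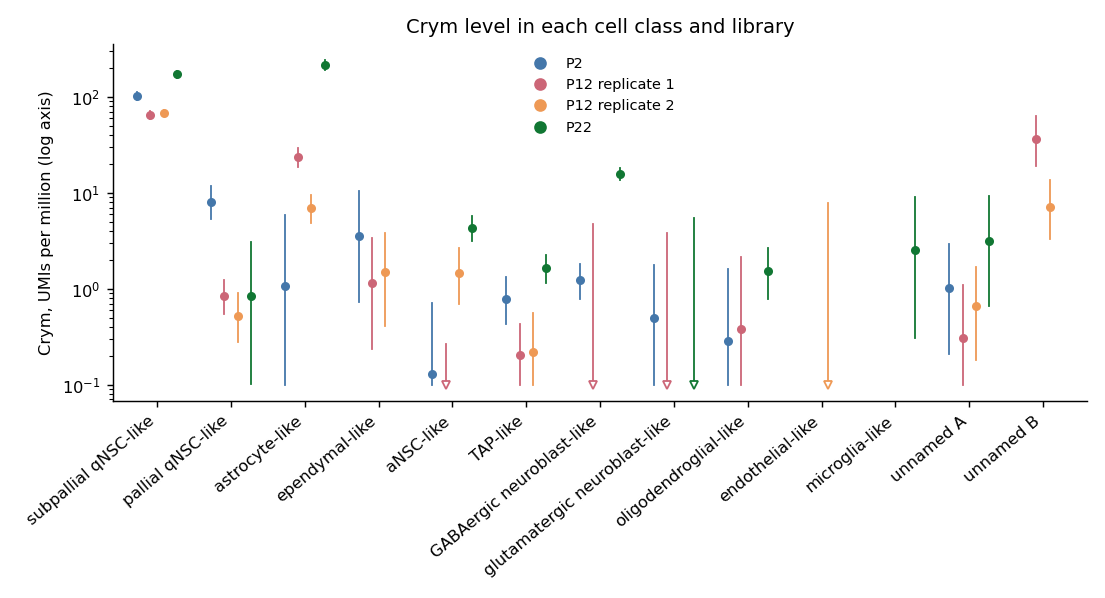
Crym level, as CPM on a log axis, in each cell class and library, with exact 95% Poisson intervals as bars and open triangles for 0 UMIs. Subpallial qNSC-like cells sit between 64.6 and 173 in all 4 libraries, and astrocyte-like cells run from 1.06 at P2 to 214 at P22.

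Within the subpallial class the Crym transcripts came from few cells. Cells with 3 or more Crym UMIs were 23 of 259 at P2, 28 of 591 and 24 of 676 in the P12 replicates and 34 of 307 at P22, or 8.88, 4.74, 3.55 and 11.1%. They held 93.9, 95.9, 91.7 and 96.4% of the Crym UMIs of the class. The highest single cell carried 92, 87, 112 and 110 Crym UMIs, and 216, 546, 609 and 258 cells carried none. When the cells with 3 or more UMIs were left out, a choice made after the data were seen, the level of the remaining subpallial cells was 6.87, 2.82, 5.87 and 7.07 CPM. The class mean of Crym is therefore a mean over a small number of high cells and a majority without a UMI.

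Cells with any Crym UMI were 16.6% of the subpallial qNSC-like cells at P2, 7.61 and 9.91% at P12 and 16.0% at P22, with medians of 17108, 11896, 15041.5 and 10393 UMIs per cell. In pallial qNSC-like cells the same shares were 4.85, 0.761, 0.501 and 0.651% at medians of 15217, 9526.5, 12032 and 7347 UMIs. The astrocyte-like share was 1.92% at P2, 2.39 and 4.08% at P12 and 30.9% at P22. Free RNA in droplets can give a UMI to cells that do not express a gene, and its part in these shares was not tested. In TAP-like cells the share was 0.588, 0.519, 0.774 and 1.31% at medians of 23765 to 35743 UMIs. With every cell thinned to 5000 UMIs, the subpallial shares became 9.73, 5.47, 6.37 and 13.8%, the pallial ones 3.13, 0.435, 0.252 and 0.334% and the TAP-like ones 0.295, 0.223, 0.196 and 0.438%. Shallower cells were left out, which kept 257, 585, 675 and 304 subpallial and 224, 2989, 1983 and 299 pallial cells.

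The high cells were also few in the other classes. In the astrocyte-like cells of P22, 20 of 110 had 3 or more Crym UMIs and held 254 of 274. In P12 replicate 1, 3 astrocyte-like cells held 74 of 77 UMIs, the highest of them 51, so the difference between the P12 replicates in this class rests on these 3 cells. In the GABAergic neuroblast-like cells of P22, 5 of 1414 cells held 201 of 214 UMIs.

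The cells with 3 or more Crym UMIs were compared with the subpallial cells without any, as a description, since the grouping was made on Crym itself and after the data were seen. Differences are on the scale of log2(CPM + 10) and are given in the order P2, P12 replicates 1 and 2, P22. The thyroxine transporter gene Slco1c1 was higher in the Crym cells by 0.30, 0.81, 0.55 and 1.28, and at P22 stood at 505 against 203 CPM. Dio2 was lower in all 4 libraries, by −0.67, −0.86, −0.93 and −0.96, with 117 against 222 and 156 against 305 CPM in the P12 replicates. Thrsp was likewise lower throughout (−0.67, −0.71, −0.54 and −1.04). Thra, Thrb and Klf9 differed in sign between libraries. The subpallial class name rests on Gsx2 and its partners, and Gsx2 was lower in the Crym cells in all 4 libraries, at 8.69 to 19.1 CPM against 41.0 to 74.5. By a gate on the regional genes, 10, 9, 9 and 11 of the Crym cells counted as subpallial and 3, 2, 2 and 1 as pallial, while 9, 17, 13 and 22 carried neither set. Of the cells without Crym, 104 of 216, 205 of 546, 342 of 609 and 137 of 258 counted as subpallial, and 58, 311, 227 and 114 carried neither. Hopx, a leading gene of the main pallial cluster, was lower too, by −0.91 to −2.67.

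**Figure D2:**
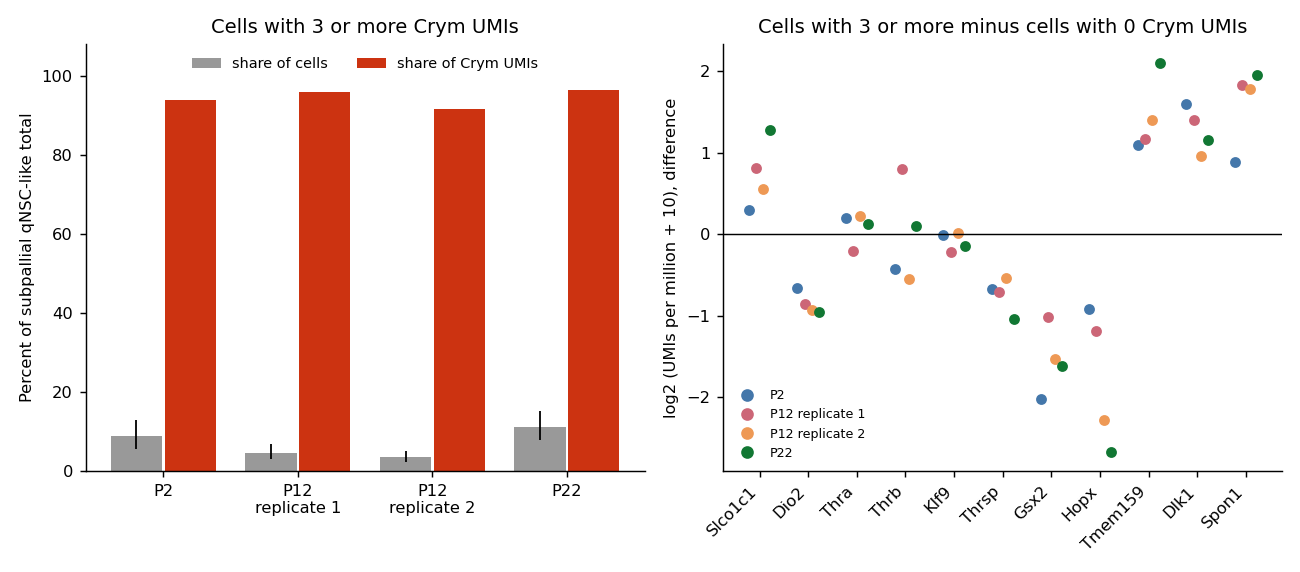
Left, the share of subpallial qNSC-like cells with 3 or more Crym UMIs (grey, exact 95% binomial interval) beside the share of the class's Crym UMIs that they hold (red), by library. Right, differences in log2(CPM + 10) between cells with 3 or more and cells with 0 Crym UMIs, 1 point per library: Slco1c1 lies above 0 and Dio2, Thrsp, Gsx2 and Hopx lie below 0 in all 4.

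Likeness to Crym was measured as Pearson's correlation of log2(CPM + 1) over 12 points, 6 classes in each P12 library, which share libraries and depth and give no p-value. Among 9628 genes the closest was Slc25a3, the mitochondrial phosphate carrier, with r = 0.912. Other genes close to it were Nadk2 (0.883), Fam181a (0.882), Sox5 (0.881), Tmem189 (0.878), Gm266 (0.874), Ephx2 (0.872), Kcne1l (0.863) and Grin2c (0.860). Gm266 stood at 162 and 123 CPM in the subpallial and at 19.8 and 21.4 in the pallial qNSC-like cells of P12. Of the thyroid hormone genes, Dio2 came nearest with 0.716, then Slco1c1 (0.616), Thrb (0.524), Thra (0.440) and Klf9 (0.426), whereas Thrsp (−0.388) ran the other way. Hr (−0.143) and Ttr (−0.285) had means under 10 CPM over these points, the floor set for the genes compared, and were not among them.

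Crym (ENSMUSG00000030905) lies on the minus strand of chromosome 7 (GRCm38, chr7:120186380-120202111), and Anks4b, on the opposite strand, ends 793 bases from its 3′ end. Dio2 (ENSMUSG00000007682) spans chr12:90724552-90738438 on the minus strand and Slco1c1 (ENSMUSG00000030235) chr6:141524368-141570177 on the plus strand. Thra (ENSMUSG00000058756, chr11:98740638-98769006, plus strand) overlaps the 3′ part of Nr1d1 on the opposite strand by 1075 bases. Thrb (ENSMUSG00000021779) spans chr14:17660261-18038090, Klf9 (ENSMUSG00000033863) chr19:23141226-23168134 and Hr (ENSMUSG00000022096) chr14:70552212-70573548, all on the plus strand, and Thrsp (ENSMUSG00000035686) chr7:97412938-97417730 on the minus strand.

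Promoter windows of 250 bases before the RefSeq start (GRCm38.p6) were found for 5 of the 9 genes, in 6 windows. They are shown for Dio2, the activating enzyme, and Klf9, a responsive gene, as examples chosen after the matches were seen, with capitals for letters that match a cyclic AMP response element (TGACGTCA), its shorter core (TGACG) or a TATA box (TATAAA), on either strand.

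Dio2, chr12:90739039-90739288, minus strand: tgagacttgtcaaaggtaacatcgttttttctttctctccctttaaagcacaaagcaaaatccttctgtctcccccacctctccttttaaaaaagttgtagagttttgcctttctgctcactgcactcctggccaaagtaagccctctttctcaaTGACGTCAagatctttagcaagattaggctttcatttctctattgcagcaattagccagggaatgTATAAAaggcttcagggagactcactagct
Klf9, chr19:23140976-23141225, plus strand: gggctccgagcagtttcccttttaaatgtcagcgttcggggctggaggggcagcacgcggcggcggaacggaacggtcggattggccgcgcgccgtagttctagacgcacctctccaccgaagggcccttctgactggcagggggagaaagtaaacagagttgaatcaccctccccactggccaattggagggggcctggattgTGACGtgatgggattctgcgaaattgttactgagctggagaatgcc

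The Dio2 window held the full element 95 bases before the start and the TATA box 30 bases before it. The Klf9 window held the core 46 bases before the start. The full element is found in 1.55% of all 32851 windows of this length, the core, which every full element contains, in 17.8% and the TATA box in 12.4%. One of the 2 Thrb windows held the core 56 bases before the start and the other a TATA box 167 bases before it. The receptor half-site AGGTCA occurred in the former, 184 bases before the start, and in 14% of all windows. The windows of Slco1c1 and Thrsp held none of these letters. A direct repeat of it with 4 bases between, the DR4 element, occurred in none of the 6 windows and in 0.0152% of all. These are matches of letters and no binding was measured.

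Slco1c1, the thyroxine transporter of blood-brain barrier and astroglia, was highest per cell class in endothelial-like cells, at 1247 CPM at P2, 2174 and 2360 at P12 and 1338 at P22, although only P12 replicate 2 held 20 or more of these cells. In pallial qNSC-like cells it stood at 381, 326, 366 and 147, and in subpallial ones at 282, 336, 461 and 246. The astrocyte-like cells had 248 at P2, 360 and 431 at P12 and 548 at P22. In ependymal-like cells it stood at 221, 242, 340 and 102. In aNSC-like cells it was 30.8, 110, 170 and 25, and in TAP-like cells 17.9, 56.1, 123 and 9.79, below the quiescent cells in every library. Pallial, subpallial and astrocyte-like cells overlapped at P12. The summed endothelial markers were 42.7 to 50.2 CPM in the qNSC-like groups of P12 and 58.6 and 68.0 in the astrocyte-like cells. The part of endothelial RNA in these Slco1c1 levels was not tested.

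Dio2, whose enzyme makes the active hormone, was a gene of the quiescent and astrocyte-like cells. It stood at 52.0, 140, 219 and 45.9 CPM in pallial and at 37.3, 213, 297 and 61.7 in subpallial qNSC-like cells. The astrocyte-like cells had 66.7, 201, 286 and 157. The levels of P12 replicate 2 were above those of replicate 1 in all of these classes. Ependymal-like cells had 73.2 and 73.7 at P12, and unnamed B 297 and 428. In aNSC-like cells Dio2 was 27.5 and 60.7 and in TAP-like cells 15.6 and 32.5 at P12. Dio3, the inactivating deiodinase gene, was low and mostly subpallial, at 0.220, 13.2, 9.13 and 34.4 CPM in subpallial against 0, 3.72, 1.93 and 0.421 in pallial qNSC-like cells. Dio1 and the carrier genes Alb and Serpina7 had no UMI in stem cell, astrocyte-like, ependymal-like or endothelial-like classes, which in qNSC-like cells of P12 allows up to 0.0811 and 0.0853 CPM.

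Of the receptors, Thra was spread over all neural classes. It stood at 279, 342, 353 and 362 CPM in qNSC-like cells, 261, 285, 265 and 254 in astrocyte-like cells, and 136, 163, 185 and 154 in aNSC-like cells. TAP-like cells were lower still (108.4, 130, 132 and 137). The neuroblast classes of P2 were at 590 and 561, the oligodendroglial-like cells of P22 at 680 and the microglia-like cells of P22 at 30.3. Thrb encodes the β receptors. In qNSC-like cells it was 5.99 at P2, 27.7 and 36.1 at P12 and 17.1 at P22, and in astrocyte-like cells 4.23, 29.7, 32.5 and 26.6. In TAP-like cells it was 1.11 to 5.55 in all 4 libraries.

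Among the responsive genes, Klf9, a Krüppel-like transcription factor, was at 133, 781, 412 and 536 CPM in pallial and 135, 616, 385 and 453 in subpallial qNSC-like cells. Its levels in ependymal-like cells were 95.6, 759, 394 and 278, and in aNSC-like cells 25.7, 186, 136 and 51.7. The P12 replicates differed by more than the classes of quiescent cells did. Thrsp, a regulator of lipid synthesis, had its highest level in unnamed A, at 329, 597, 396 and 852. It was higher in pallial (141, 181, 163 and 242) than in subpallial qNSC-like cells (76.1, 123, 106 and 110) in all 4 libraries. Hr, a corepressor of nuclear receptors, was low everywhere, with 1.81 and 1.88 in qNSC-like, 6.07 and 5.07 in astrocyte-like and 14.5 in oligodendroglial-like cells (P12 replicate 1). Ttr had at most 6 UMIs and 0.914 CPM in any class and library, and was not tested in any comparison. The 12 choroid plexus markers summed to at most 133 CPM in the stem cell, TAP-like, astrocyte-like and ependymal-like classes of 20 or more cells. Against the other cells of P12, the ependymal-like cluster had 11 of these 12 higher.

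**Figure D3:**
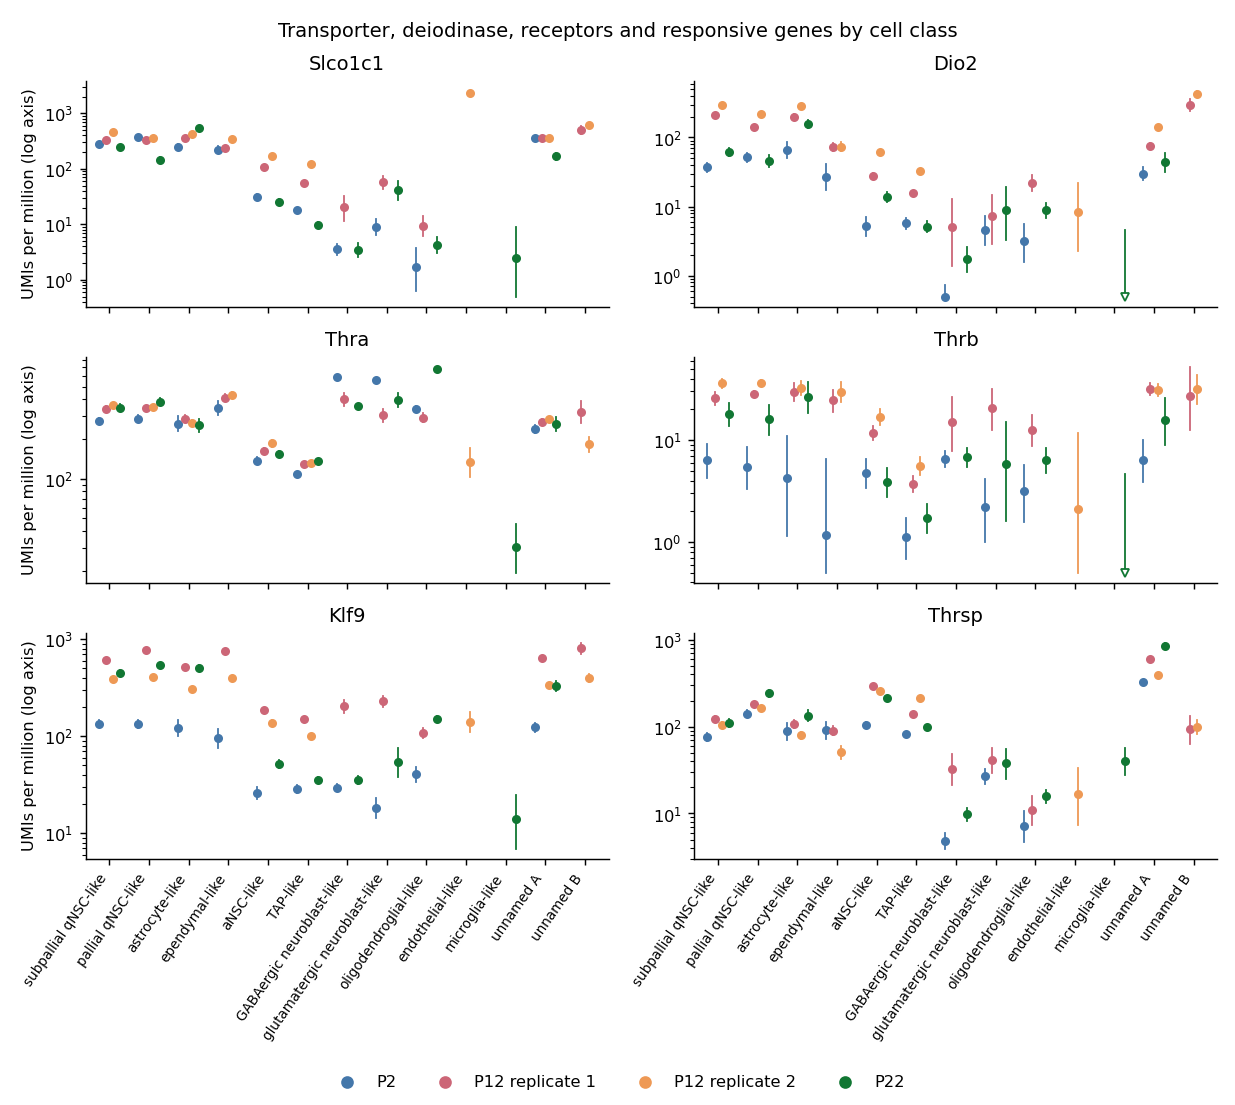
CPM on log axes of Slco1c1, Dio2, Thra, Thrb, Klf9 and Thrsp in classes of 20 or more cells, 1 point per library with exact 95% Poisson intervals, open triangles for 0 UMIs. Slco1c1, Dio2 and Klf9 are lower in aNSC-like and TAP-like cells than in the qNSC-like groups of the same library, and Thrsp is highest in unnamed A.

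At P12 most of these genes had lower levels in aNSC-like than in qNSC-like cells. Here and below, fell and rose give the sign of a difference between classes, and no cell was followed over time. The study's RNA velocity led, among other courses, from activated toward quiescent cells. Besides Crym 7 were tested, of which 5 fell and 2 rose in aNSC-like against qNSC-like cells. Of all 15047 genes tested 66.4% were called, 33% higher and 33.4% lower, so that a call alone says little. Dio2 fell by 2.26 on the log2 scale (SE 0.12, adjusted p = 6.1e-12, edgeR quasi-likelihood test), from 198 ± 62.0 to 44.1 ± 23.5 CPM (mean ± SD, n = 2). Klf9 fell by 1.81 (SE 0.12, adjusted p = 6.4e-11), Slco1c1 by 1.42, Thrb by 1.19 and Thra by 1.02. Crym, as a description, had 485 UMIs in qNSC-like cells and 0 in aNSC-like cells of replicate 1, at least 60.3-fold lower, and 20.2 against 1.45 CPM in replicate 2. Thrsp rose by 0.78 (SE 0.10) and Hr by 1.60 (SE 0.27), from 1.81 and 1.88 to 4.79 and 6.83 CPM. Each of these genes moved the same way in both replicates. Of 11 further responsive genes 4 rose and 5 fell, with a median log2 change of −0.12 against −0.02 over all genes tested, led by Dbp (−2.44), a circadian transcription factor, Nrgn (2.00) and Rasd2 (1.75). Dio3 fell by 2.05.

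The other lists divided in the same comparison. Of 13 receptor partners 4 rose and 4 fell, among them Rxra (−0.83), a retinoid X receptor, and the coactivator gene Ncoa3 (−0.68). Of 5 transporters tested 2 rose, Slc7a5 (2.33), an amino acid transporter that also carries the hormones, and Slco3a1 (2.14), and 3 fell, among them Slco2b1 (−1.71). Of the gland and axis genes Tshr, the thyrotropin receptor gene, fell by 3.82, from 35.0 and 53.0 CPM in pallial and 16.8 and 16.1 in subpallial qNSC-like cells to 2.32 and 2.90 in aNSC-like cells, while Slc5a5, the iodide transporter gene, rose by 1.98 at levels of at most 1.02.

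Between aNSC-like cells and TAP-like progenitors 4 of the 7 genes tested fell and none rose, where 35.3% of 13776 genes were called, 18.7% higher and 16.6% lower. These were Thrb (−1.47, SE 0.21, adjusted p = 3.2e-05), Dio2 (−0.69), Slco1c1 (−0.55) and Thrsp (−0.51), and for Thrsp the replicates differed, at −0.89 and −0.12. Without the library as a block none of these 4 calls held, and Thrsp also lost its call with clusters from a random part of the UMIs (adjusted p = 0.081). Thra (−0.24), Klf9 (−0.22) and Hr (0.14) did not pass, although with classes from marker thresholds Klf9 was lower by −1.04, and Crym was too low to be tested. Dio3 fell again (−1.85). Of 13 receptor partners 6 rose and 1 fell (among those that rose, Tbl1xr1 0.69 and Gps2 0.52), with a median of 0.27 against −0.01 over all genes. Of 11 responsive genes 1 rose and 4 fell, the furthest being Stat5a (−1.82), Gpd2 (−0.80) and Ppargc1a (−0.77).

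In the comparison of astrocyte-like with qNSC-like cells of P12, of 7 genes tested besides Crym 3 were higher and 3 lower in astrocyte-like cells, where 40% of 14684 genes were called, 19.6% higher and 20.4% lower. Hr was higher by 1.62 (SE 0.34, adjusted p = 1.1e-05), Dio2 by 0.35 (SE 0.07) and Slco1c1 by 0.18 (SE 0.07, adjusted p = 0.036), the last not called by DESeq2 (adjusted p = 0.16), without the filter on low counts (0.27) or over all 4 libraries (0.30). Thrsp was lower by −0.72 (SE 0.08), Klf9 by −0.42 (SE 0.07) and Thra by −0.29 (SE 0.07). Over all 4 libraries Thra (adjusted p = 0.078) and Klf9 (0.29) were no longer called, and without the library block only Hr among the 6 was. Thrb did not differ beyond its error (0.00, SE 0.12). Crym gave 0.88 in replicate 1 and −1.47 in replicate 2, and with classes taken from marker thresholds its fitted difference was 2.87, so no direction is given for it.

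Of 10 responsive genes tested in this comparison 8 were higher and 1 lower in astrocyte-like cells, with a median of 0.84 against −0.01 over all genes. The furthest were Mbp (1.70), the myelin basic protein gene, Sema7a (1.33) and Camk4 (1.23), all at 26.5 CPM or less in astrocyte-like cells. The summed oligodendroglial markers, to which Mbp does not belong, were at 227 and 172 CPM in astrocyte-like and at 107.7 to 152 in qNSC-like cells, and their part in the Mbp value was not tested. Of 13 partners Rxrg was higher (4.04), Rxra (−1.12) and Rxrb (−0.35) lower. Of 5 transporters Slc7a5 (2.50) and Slc3a2 (1.02), which form a heterodimer, were higher and 2 were lower, among them Slco2b1 (−2.43). Trh (3.51), the thyrotropin-releasing hormone gene, and Iyd (2.40) were higher at levels of at most 4.88 CPM, and Tshr was lower (−2.21).

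Ependymal-like cells, which line the ventricle, had lower levels of 3 genes and a higher one of 1 than qNSC-like cells, of 7 tested besides Crym, where 27% of 14667 genes were called, 14.9% higher and 12.1% lower. Dio2 was lower by −1.42 (SE 0.10, adjusted p = 2.2e-17), Thrsp by −1.20 (SE 0.10) and Slco1c1 by −0.33 (SE 0.07). Thra was higher by 0.26 (SE 0.07, adjusted p = 0.0028), at 411 and 431 against 342 and 353 CPM, and lost its call with DESeq2 (adjusted p = 0.091) and over all 4 libraries (0.076). Klf9 (−0.02), Thrb (−0.25) and Hr (−0.72) did not pass. Crym stood at 1.15 and 1.5 against 13.1 and 20.2 CPM. In the lists, Slco3a1 was higher (2.88) and Slc7a5 (−1.18), Abcd2 (−0.77), Gpd2 (−0.55) and Ncoa1 (−0.26) lower.

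**Figure D4:**
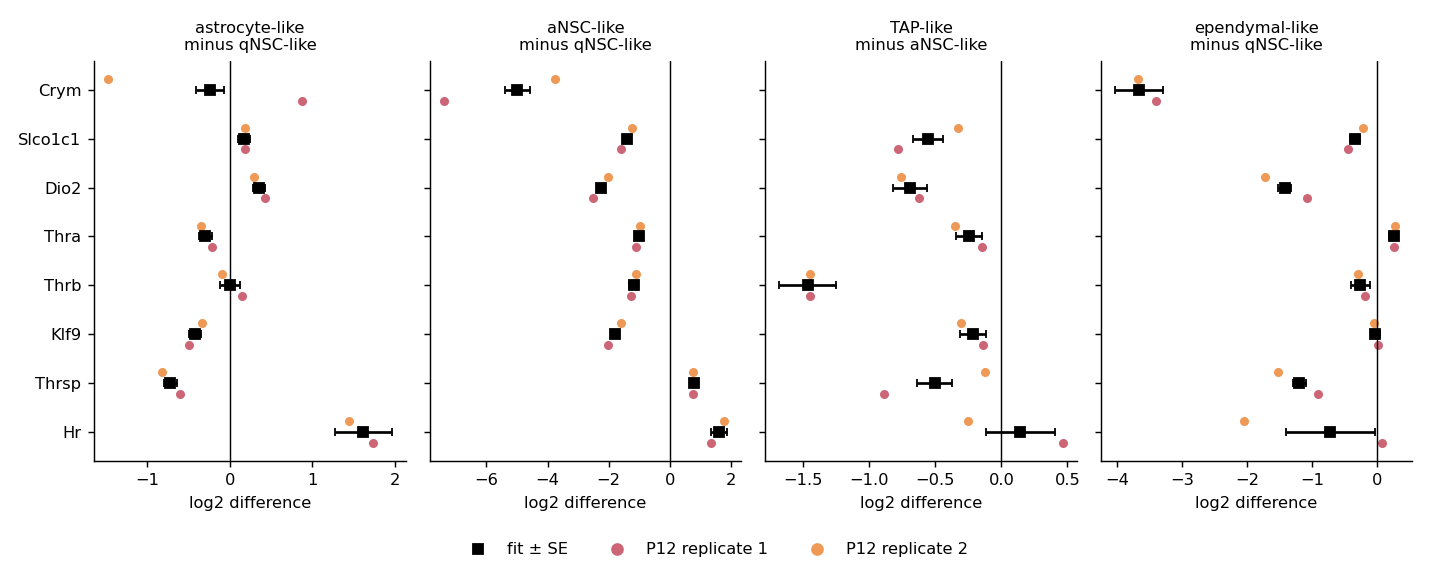
Log2 differences at P12 for 8 genes in the comparisons of classes, with the edgeR estimate ± SE (black squares) and the value of each replicate (coloured points). Dio2, Slco1c1, Klf9, Thra and Thrb lie left of 0 in aNSC-like cells in both replicates, and Crym in astrocyte-like cells lies on opposite sides of 0.

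Between subpallial and pallial qNSC-like cells at P12, the contrast from which Crym was chosen, the log2 differences in replicates 1 and 2 were 6.12 and 6.78 for Crym, where 31.8% of 14298 genes were called, 16.4% higher and 15.4% lower. Those of Dio2 were 0.62 and 0.48, those of Thrsp −0.53 and −0.58, and those of Slco1c1 0.06 and 0.37. Klf9 gave −0.32 and −0.05, and Thra, Thrb and Hr stayed within 0.30 of 0. Of the listed genes, Tshr was lower (−1.41) and Dio3 higher (2.02) in the subpallial group.

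The same contrast was tested in the P2 and P22 libraries. Crym was chosen by its lead at P12, but with earlier results of these data known, so the test is not independent of that choice. Genes that go with Crym had also formed the P12 classes from which names were transferred. Here 3.68% of 11439 genes were called, 2.03% higher and 1.65% lower, and of 7 genes tested Crym was higher and Thrsp lower. Crym differed by 4.66 (SE 0.38, adjusted p = 4.5e-05). The log2 ratio of its CPM was 3.66 at P2 (95% counting interval 3.11 to 4.26) and 7.68 at P22 (5.82 to 10.7), the latter against 2 UMIs in pallial cells. Thrsp differed by −1.03 (SE 0.12, adjusted p = 6.3e-04), −0.88 at P2 and −1.18 at P22. Dio2 gave −0.06 (adjusted p = 0.95), with −0.47 at P2 and 0.38 at P22, and Slco1c1 0.11 (adjusted p = 0.90), with −0.42 and 0.69. Thra (−0.11), Thrb (0.17) and Klf9 (−0.13) did not pass. No gene of the other lists was called. The comparison rests on 1 library per age, and without the library as a block no gene was called (0 of 11439, and 266 at an unadjusted p under 0.05). Its pallial side came mostly from the cluster led by Col23a1 at P2 and from the one led by Thbs4 at P22. The part of this in the differences between the ages was not tested.

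Among aNSC-like cells of P12 that carried genes of either regional gate, 4 of 7 genes were lower on the subpallial side and none higher, where 3.89% of 11085 genes were called, 1.15% higher and 2.74% lower. Thrsp differed by −1.33 (SE 0.15, adjusted p = 1.2e-15), at 470 and 407 CPM in 140 and 87 pallial cells against 187 and 150 in 266 and 63 subpallial cells. Slco1c1 differed by −1.36 (adjusted p = 4.5e-16), although the replicates gave −2.06 and −0.65. Thrb (−1.38, adjusted p = 0.0024) and Klf9 (−0.55, adjusted p = 0.0092) were lower as well, with −0.14 for Klf9 in replicate 2. With DESeq2, Slco1c1, Thrb and Klf9 were no longer called (adjusted p = 1), nor were they over all 4 libraries (adjusted p = 0.071, 0.16 and 0.25), and without the library block none of the 4 was. Tshr (−2.14) was lower in the same comparison. Thrsp was thus lower on the subpallial side in quiescent cells of all 4 libraries and in activated cells of both P12 replicates.

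Across ages, P2 and P22 have 1 library each, so levels are set side by side without a test. The mix of clusters within the qNSC-like cells also differed between ages, and its part in the levels was not tested. In qNSC-like cells Dio2 was at 43.7 CPM at P2, 154 and 242 at P12 and 55 at P22, with the P12 mean 2.18 above P2 and 1.85 above P22 on the log2 scale. Thrb followed the same course, 2.41 above P2 and 0.90 above P22. Klf9 was 2.10 above P2 at P12 (134 against 749 and 404), while the P22 level of 488 lay between the P12 replicates. Slco1c1 was 0.15 above P2 and 0.82 above P22, Thra 0.32 above P2 and −0.06 from P22, and Thrsp 0.60 above P2 and −0.07 from P22. Crym in subpallial qNSC-like cells took the opposite course, with P12 at −0.62 from P2 and −1.39 from P22. The share of cells with 3 or more UMIs was lowest at P12 as well, and its P2 value, 8.88% (exact binomial interval 5.71 to 13%), overlapped that of P22, 11.1% (7.79 to 15.1%). The P2 interval also overlapped that of P12 replicate 1, 4.74% (3.17 to 6.77%). From P2 over the P12 replicates to P22, 5 cells held 65.9, 47.4, 63.6 and 43.2% of the Crym UMIs of the class. The difference in Crym between P2 and P12 is therefore not settled.

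**Figure D5:**
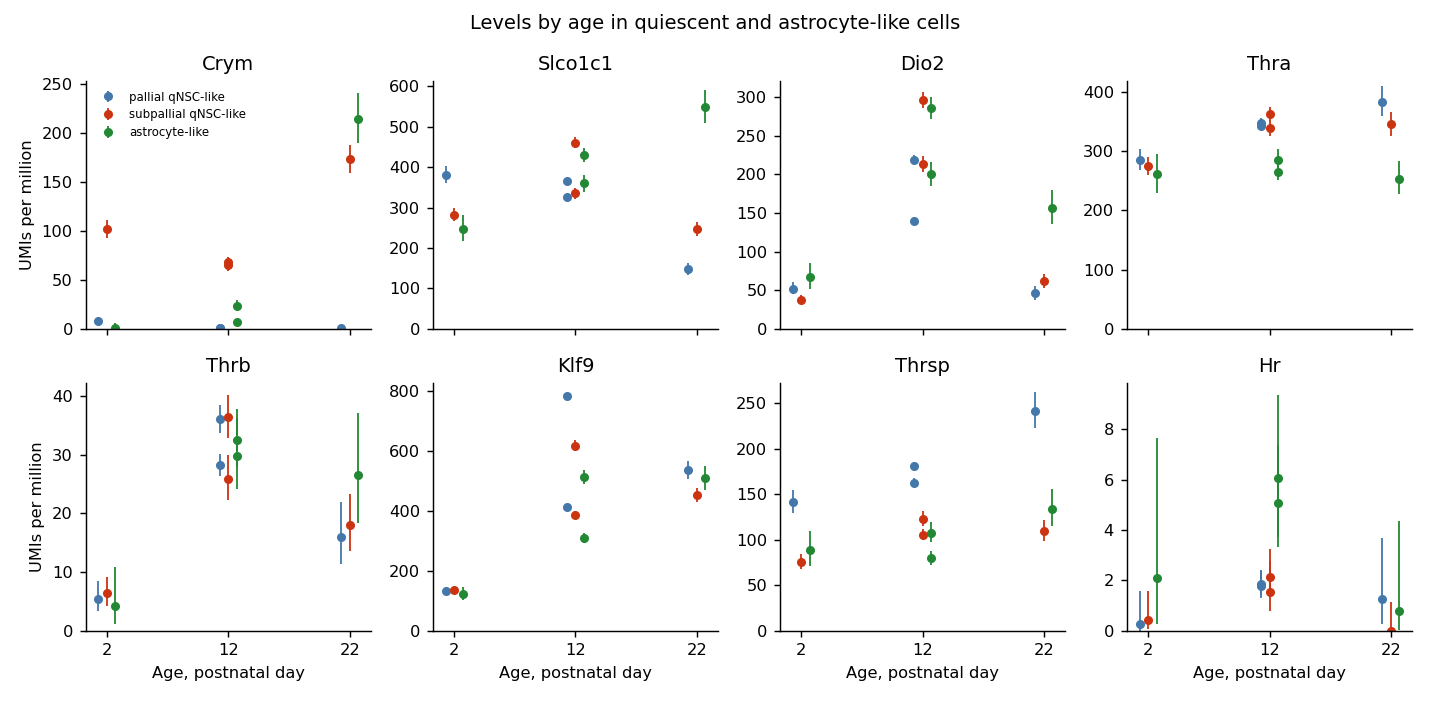
CPM of 8 genes at postnatal days 2, 12 and 22 in pallial and subpallial qNSC-like and astrocyte-like cells, 1 point per library with exact 95% Poisson intervals. Dio2 is higher in both P12 replicates than at P2 or P22 in all 3 groups, and astrocyte-like Crym and Slco1c1 are highest at P22.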

How the data were processed

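Single cells of 4 dorsal V-SVZ libraries were analysed. The authors ran Cell Ranger against mm10 and deposited, per the labels and file headers, UMI counts per gene and barcode, as whole numbers without normalization. The labels also name Seurat 3. The 9 genes and the lists were chosen with earlier results of these data known.

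A cell was kept if it had 2000 to 8000 genes and no more than 10% mitochondrial UMIs. Seurat 5.3.0 under R 4.3.3 clustered the P12 cells (2000 variable genes, anchor integration, 20 components, resolution 0.5) with 66 listed genes held out, leaving 1977 genes. Clusters took names from marker lists, and P2 and P22 cells by label transfer. After clustering on UMIs drawn at random with probability 0.5, 93.9% of cells kept their class. Gates used a log-normalized value of 0.25. Scrublet (scanpy 1.11.5) called 42, 108, 3 and 47 doublets at P2, in P12 replicates 1 and 2 and at P22. In P12 replicate 2 this was 0.0653% of cells, so the caller did not work there, and doublets were left in.

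Cells are not replicates. UMIs were summed per library and class (at least 20 cells) and compared with edgeR 4.0.16 (quasi-likelihood, TMM, filterByExpr, library as block, since a library's classes share their dissection, Benjamini-Hochberg over all genes tested, threshold 0.05). Each gene has 1 residual degree of freedom, and the spread is shared over genes. P-values measure the spread between 2 libraries. Levels are CPM with exact Poisson intervals and shares have exact Clopper-Pearson intervals (95%), covering counting error only. A bound against 0 UMIs used 3 counts per library. On simulated data with 200 changed genes, 82.8% of log2 changes of 1 were recovered for aNSC-like against qNSC-like cells (15047 genes) and 60% for the regions at P2 and P22 (11439 genes). Alternatives were DESeq2 1.42.0, other size factors, filters, doublet scores, classes and libraries, and edgeR's bias-adjusted fit, added after the data were seen.

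All 9 genes were named, with the up to 3 called genes of largest change per list and the 10 genes most like Crym. Some genes that this rule takes are not reported here. The genes set beside the Crym cells were named after their values were seen. Sequences and motif windows came from RefSeq and gene positions from GENCODE vM21.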

Additional observations from a re-analysis of the deposited data

Results flagged for a closer look

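Slco1c1 in astrocyte-like against qNSC-like cells had a log2 ratio of CPM of −0.39 at P2 (248 against 325 CPM), whereas it was 0.13 in both P12 replicates and 1.42 at P22. The P2 value was singled out because it lies on the other side of 0 from both P12 libraries. The difference between ages was not tested, since P2 has 1 library.

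Dio2 in subpallial against pallial qNSC-like cells had a log2 ratio of CPM of −0.48 at P2 (37.3 against 52.0 CPM), opposite to 0.61 and 0.44 in the P12 replicates and 0.43 at P22. This difference was not tested either, and the pallial class of P2 had the lowest median transfer score of the qNSC-like groups, 0.649. That class also came mostly from the cluster led by Col23a1, unlike at P12 and P22.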

How the results depend on the processing

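No count of called genes moved over 1.5 times with other size factors, 2500 to 7500 genes per cell, without the 5% highest doublet scores or with the bias-adjusted fit. With no replicate block the counts fell from 5872 to 1354 (astrocyte-like), 9989 to 6534 (aNSC-like), 4857 to 483 (TAP-like), 3963 to 1017 (ependymal-like), 4549 to 274 (regions, P12), 421 to 0 (regions, P2 and P22) and 431 to 14 (regional aNSC-like). Of the single-gene calls 21 were lost, counted over all comparisons, those given above only as a description among them. With DESeq2 they were 2957, 2519, 1840, 1712, 102 and 46 for all of these but aNSC-like. Over all 4 libraries the astrocyte-like, P12 regional and regional aNSC-like counts were 3502, 2939 and 91. Marker thresholds gave 3185 for astrocyte-like cells, the gate 2007 for P12 regions, no filter on low counts 781 for P2 and P22, and clusters from a random part of the UMIs 276 for regional aNSC-like cells. The cause was not tested. Leaving out 1 replicate leaves 1 library for the comparisons of classes, and so a value with no test.

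Of 602 values for single genes in these comparisons under an alternative, 476 stayed the same, 44 lost their call and 5 gained one. Another 76 moved, by a change of sign with no call or, with a replicate left out, by more than the SE of the main fit. With a call in either fit 1 changed sign, Crym in astrocyte-like cells with marker thresholds (2.87). The 602 include the values given above only as a description. Between ages, thinned shares gave −0.72 for Crym from P2 to P12 and −1.22 from P22, 1.17 for Dio2 and 0.53 for Slco1c1 from P22, 0.0877 and −0.024 for Thra, 0.39 and 0.0695 for Thrsp and 0.79 for Klf9 from P2. The mean over single cells gave −0.69 and −1.57 for Crym. Without P12 replicate 2 or 1, Thrsp against P22 was 0.0329 or −0.18 and Klf9 against P22 0.62 or −0.27, so neither has a direction there. Without 1 replicate the other age differences kept their sign: from P2, Crym −0.65 to −0.58, Dio2 1.82 to 2.47, Slco1c1 0.01 to 0.28, Thra 0.29 to 0.34, Thrb 2.21 to 2.59, Thrsp 0.48 to 0.70 and Klf9 1.59 to 2.48, and from P22, Crym −1.42 to −1.35, Dio2 1.49 to 2.14, Slco1c1 0.68 to 0.95, Thra −0.08 to −0.04 and Thrb 0.70 to 1.08. Depth limits Crym outside its high cells, and Hr and Ttr everywhere.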

Other observations

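Some genes differed between subpallial cells with 3 or more and with 0 Crym UMIs in the same direction in all 4 libraries. They were chosen after their values were seen and are given on the scale of log2(CPM + 10), without a test, from P2 over P12 replicates 1 and 2 to P22. Tmem159, whose gene ends 65387 bases from Crym on chromosome 7, was higher by 1.09, 1.17, 1.40 and 2.09, at 12.8 to 37.5 against 0.108 to 1.13 CPM. Spon1, which encodes a secreted matrix protein, was higher by 0.88, 1.83, 1.78 and 1.95, and Dlk1, an imprinted gene of a Notch-like protein, by 1.59, 1.40, 0.96 and 1.16. C1ql3, Lmo1, Sp5, Lxn and Olfml2a were higher as well. Pak3, Tnc, Efhd1, Gpr37 and Igfbp5 were lower in all 4.

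Transcripts that the study names for the dorsal (4) or ventral lineage or wall (8) were set beside them, with Emx1. Of the dorsal ones, Rlbp1, Gm29260 and Pax6 were lower in the Crym cells in all 4 libraries, Gm29260 by −1.24 to −1.97 and Pax6 by −0.46 to −1.34. Dcc was higher at P2 (0.17) and lower in the others (−0.29 to −0.84), and Emx1 was 0.35, 0.14, 0.15 and −0.34. Of the ventral ones, Slit2 (0.72 to 1.35), Sntb1 (0.21 to 0.65) and Vax1 (0.41 to 1.02) were higher in all 4, Vax1 at 5.11 to 10.9 CPM against 0.267 to 1.51. Adgrl3, Ptprn2 and Rbms1 were higher in 3 of 4, with −0.12 in P12 replicate 1, −0.08 at P2 and −0.32 in P12 replicate 2 as the exceptions. Nkx2-1 and Nkx2-3 had no UMI in the Crym cells. Apart from Rlbp1 and Pax6, the counts behind these transcripts in the Crym cells are small.

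Klf9 is also known as a target of glucocorticoids, and genes of that hormone and of the dissociation response were set beside it after the data were seen. In qNSC-like cells Tsc22d3 was at 38, 106, 89.2 and 471 CPM and Junb at 195, 2305, 1599 and 1528, from P2 over the P12 replicates to P22, and their part in the Klf9 levels was not tested. Other such genes were looked at as well and are not reported here.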
